A study of Homo sapiens with 9 samples.

Results

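In this experiment 3 of 9 arrays, the first replicate of each of 3 groups of cells, stood apart from the other 6. The 3 arrays are those whose sample titles end in replicate number 1, and they were set against the 6 arrays of replicates 2 and 3 with the group as a block. The cells are described as IMR-32, a neuroblastoma line grown from a childhood tumour of the sympathetic nervous system. The first group stably expresses the 69-kDa form of choline acetyltransferase (ChAT), the second stably expresses the 82-kDa form, and the third is labelled wild type. Each group has 3 arrays of total RNA, which the series' design text calls biological replicates. The labels name no promoter, clone, passage, culture date or hybridisation date, so whether a group is 1 clone, and what else the arrays numbered 1 share, is not given in the sources used here.

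Choline acetyltransferase makes the neurotransmitter acetylcholine in cholinergic neurons. Cells in culture adjust many transcripts to their medium: shortage of amino acids or misfolded protein in the endoplasmic reticulum (ER) leads to phosphorylation of the initiation factor eIF2, and the factor ATF4 then switches on amino acid synthesis and import, tRNA charging and its own partners DDIT3, ATF3 and TRIB3. The ER has a further response of its own, in which ATF6 and XBP1 raise the chaperones that fold secreted proteins. Sterol synthesis is set by SREBP factors, which act when membrane cholesterol is low, and growing cultures carry more mRNA for DNA replication and mitosis than crowded or starved ones.

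The labelled identity was checked first. CHAT mRNA, in deposited intensity units, was 256 on replicate 1 against 175 and 177 on replicates 2 and 3 in the 69-kDa line, 1066 against 423 and 1067 in the 82-kDa line, and 148 against 125 and 114 on the arrays labelled wild type. It did not pass the test for replicate 1 (log2 difference 0.50 ± 0.25 SE, adjusted p = 0.148), but did so when replicate 3 of the 82-kDa line was left out (adjusted p = 0.033). The label wild type goes against the markers. MYCN, the amplified oncogene of IMR-32, read 4181 to 6118 on the 6 arrays of the lines, against 62.5 to 120.5 where wild type is the label, and the noradrenergic factor PHOX2A read 761 to 1572 against 90.8 to 108. Of 9 measured neuroblastoma markers, 9 were brighter than the lower quartile of an array (57.5) in the lines and 6 on the arrays labelled wild type, while the epithelial markers gave 2 and 6 of 6, with KRT8 at 72.1 to 84.1 in the lines against 801 to 1086. Mesenchymal markers gave 5 of 6 and 4 of 6, Schwann and glial markers 2 and 2 of 3 measured, and leukocyte markers 4 and 4 of 5. Most probe sets of any array lie above its lower quartile by definition, so counts with most markers above it say little about identity. The label is questioned on the MYCN, PHOX2A and KRT8 values. The 3 arrays are therefore called the arrays labelled wild type throughout, and each comparison is also given within a group.

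Intensities on the replicate 1 arrays were spread over a narrower range. The upper quartile of all probe sets was 5.91, 5.67 and 6.62 times the lower quartile on replicate 1 of the 69-kDa line, the 82-kDa line and the arrays labelled wild type, against 6.68 to 7.27 on the other 6 arrays, although the authors had normalized the arrays together. Array medians were 141 to 143 and 134 to 137, and the bacterial spike-in bioD 761 to 1033 and 1530 to 2308. The spike-ins did not all go 1 way: bioB read 180 to 275 and 109 to 180, and cre, by its 5' probe set, 4552 to 6068 and 5608 to 7197. The ACTB 3' to 5' ratio, a sign of RNA quality, was 0.703 and 0.709 on replicate 1 of the lines and 0.863 to 0.907 on their other arrays, and 0.847 against 1.08 and 0.831 on the arrays labelled wild type. The same ratio for GAPDH overlapped, at 0.98 to 1.06 on replicate 1 and 0.95 to 1.05 on the other arrays. The part of RNA quality in the shifts was not tested. Dim probe sets were therefore slightly higher on replicate 1 and bright ones lower: the median log2 difference was between 0.08 and 0.12 in each of the 6 dimmest of 10 equal bins of the probe sets, -0.18 in the ninth and -0.25 in the brightest, where 46.2% of probe sets were lower against 0.54% in the dimmest. The part of this in the counts below was not tested, so counts of gene lists over all groups are also given after a second quantile normalization, which makes the 9 distributions equal.

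In the fit over all groups, 3828 of 22215 probe sets (17.2%) were higher and 3234 (14.6%) lower on replicate 1, together 31.8% (limma, Benjamini-Hochberg adjusted p under 0.05). Centred on each array's median, the split turned to 2033 higher and 4437 lower. The total was 4524 without replicate 1 of the 69-kDa line, 4645 without its replicate 3 and 4411 without replicate 1 of the 82-kDa line. Within a group, the shift, that is replicate 1 minus the mean of replicates 2 and 3 on the log2 scale, was called for 3092 higher and 3233 lower probe sets in the 69-kDa line (28.5% together; 2054 and 3930 after median centring). In the 82-kDa line 3565 were higher and 3741 lower (32.9%; 2433 and 4456 centred), and on the arrays labelled wild type 677 (3.05%) and 874 (3.93%; 6.98% together; 415 and 1280 centred). These shifts rest on 1 array of replicate 1 in each group, assumed to vary like the others, and on the spread between replicates 2 and 3. The count in the 69-kDa line fell to 3453 and 1915 without its replicate 2 or 3, that in the 82-kDa line to 3284 without its replicate 3, and that on the arrays labelled wild type to 0 without any 1 of the 6 arrays of replicates 2 and 3 (limma; 5069 to 6300 at an unadjusted p under 0.05). With array quality weights the counts were 3101 over all groups and 937, 265 and 0 in the 3 groups (limma; 1933 at an unadjusted p under 0.05 for the last).

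The shifts of the 3 groups share no array and ran partly together. Over all 22215 probe sets their correlation was 0.57 between the lines, 0.48 between the 69-kDa line and the arrays labelled wild type, and 0.47 between the 82-kDa line and these, a description in which the common difference in spread also takes part. Of the calls in the 69-kDa line 54.2% were called in the same direction in the 82-kDa line, which is 46.9% of the calls there, while 4.30% and 3.72% were called in the opposite direction. The difference between the shift of 1 group and the mean shift of the others passed for 429 probe sets above (1.93%) and 456 below (2.05%) in the 69-kDa line, 3.98% together. It passed for 458 (2.06%) and 753 (3.39%) in the 82-kDa line, 5.45% together, and for 433 (1.95%) and 265 (1.19%) on the arrays labelled wild type, 3.14% together. Replicate 1 lay above both other arrays in all 3 groups for 25.1% of probe sets and below both in 16.2%.

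A probe set was counted as shared by all groups where its 3 shifts each passed in the same direction: 253 were higher (1.14%) and 488 lower (2.20%). This class rests on the shifts of the arrays labelled wild type, so that it held 0 probe sets when any 1 of the 6 arrays of replicates 2 and 3 was left out, or at an adjusted p under 0.01. After median centring it held 125 higher and 723 lower. Of the lower probe sets 181 were among the brightest 10% and 0 among the dimmest 10%. Shifts called in 1 line and on the arrays labelled wild type, with the other line apart from them, were fewer, at 20 higher (0.0900%) and 19 lower (0.0855%) for the 69-kDa line and 8 higher (0.0360%) and 29 lower (0.131%) for the 82-kDa line.

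The 10 genes named for the largest falls over all groups included genes of RNA handling, translation and cell growth control. RBM3, a cold-inducible RNA-binding protein, read 181 on replicate 1 against 867 and 862 in the 69-kDa line, 208 against 633 and 710.4 in the 82-kDa line, and 378 against 880.4 and 985 on the arrays labelled wild type (log2 difference -1.75 ± 0.15 SE, adjusted p = 0.00103). PRELID3B, a mitochondrial protein of the lipid-carrier family of PRELID1, read 93.1 against 289.6 and 358, 91.9 against 289.6 and 289.6, and 138 against 409 and 408 in the same order (-1.67 ± 0.08, adjusted p = 0.000443). EIF1AX, a translation initiation factor, read 145 against 511 and 557, 134 against 477 and 506, and 722 against 1466 and 1268 (-1.56 ± 0.17, adjusted p = 0.00144). In none of the 3 genes did replicate 1 come near the other arrays of its group. The 3 shifts of PRELID3B lay between -1.79 and -1.57, while those of RBM3 and EIF1AX were smaller on the arrays labelled wild type (-1.30 and -0.92) than in the lines. EID1, an inhibitor of EP300 and of differentiation, differed by -1.75 ± 0.19 (251 to 292 on replicate 1, 533 to 1368 on the others), and FAIM, an inhibitor of Fas-induced death, by -1.47 ± 0.19 (57.7 to 174 against 219.7 to 299.8). YBX3, a cold-shock-domain protein, passed with a shift of -2.69 in the 82-kDa line, -0.93 in the 69-kDa line and -0.82 on the arrays labelled wild type (adjusted p = 0.0106 over all groups). A second, dim probe set of YBX3 was higher (0.53), so the gene's probe sets disagree, while the brighter second probe set of EID1 was lower too (-0.87). On the named probe sets these 6 genes kept their call over all groups whichever of the 9 arrays was left out.

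Other members of the 10 largest falls were shared in direction but unequal in size. GJA1, the gap junction protein connexin 43, read 179.7 on replicate 1 against 4450.1 and 4022 in the 69-kDa line, 1394 against 3208 and 3151 in the 82-kDa line, and 629.6 against 1019.7 and 967 on the arrays labelled wild type. Its log2 difference over all groups was -2.13 ± 0.61 (adjusted p = 0.0321), and without replicate 2 or 3 of either line the adjusted p was 0.0562 to 0.0676. IFI16, a sensor of foreign DNA, read 50.3 against 458 and 727, 30.3 against 1307 and 1590.4, and 234 against 368 and 328. It differed by -3.22 ± 0.74 over all groups (adjusted p = 0.0147; 0.0586 without replicate 1 of the 69-kDa line), but its shift of -0.57 on the arrays labelled wild type did not pass (adjusted p = 0.226). NEFH, the heavy neurofilament chain, and SEC24D, a coat protein of vesicles that leave the ER, differed by -1.64 ± 0.43 (adjusted p = 0.024) and -1.59 ± 0.42 (adjusted p = 0.0252). NEFH lost its call without replicate 1 or 3 of the 69-kDa line or without any array of the 82-kDa line (adjusted p up to 0.083). SEC24D lost it without replicate 3 of the 69-kDa line or without any array of the 82-kDa line (up to 0.0574).

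The 10 genes named for the largest rises over all groups had smaller differences than the falls, apart from PCLO. GRIN1, the obligate subunit of NMDA receptors, read 206 against 120.4 and 116 in the 69-kDa line, 259.8 against 138 and 120.4 in the 82-kDa line, and 159.5 against 91.6 and 98.3 on the arrays labelled wild type (0.86 ± 0.07, adjusted p = 0.00103). GADD45G, a stress-induced growth arrest gene, read 375 against 161 and 158, 298 against 148 and 143, and 148 against 106 and 114 (0.90 ± 0.13, adjusted p = 0.00321). Both passed in each group on its own. The axon guidance ligand SLIT1 (0.88 ± 0.16) and the postsynaptic scaffold DLG4 (0.88 ± 0.13) passed over all groups and in both lines, but not on the arrays labelled wild type (adjusted p = 0.146 and 0.0699). The non-coding RNA SNHG32, a host of small nucleolar RNAs, read 2715 against 830.5 and 815 in the 69-kDa line and less steeply elsewhere (0.95 ± 0.21, adjusted p = 0.0124, with 0.0527 on the arrays labelled wild type). These 5 genes kept the call over all groups without any 1 array.

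For the remaining 5 genes the shift was much larger in 1 line, or in both, than on the arrays labelled wild type. PCLO, a scaffold of the presynaptic zone, differed by 2.17 ± 0.50 over all groups on its dimmer probe set, from shifts of 3.03, 3.30 and 0.17, and lost the call when replicate 1 of either line was left out (adjusted p = 0.0745 for the 69-kDa line and 0.0765 for the 82-kDa line). NQO1, a detoxifying quinone reductase, had shifts of 1.98, 0.62 and 0.32, and lost it without replicate 2 or 3 of either line (0.0504 to 0.0593). The growth arrest gene RPRM had shifts of 0.24, 2.21 and 0.55 and lost the call without any 1 of the 6 arrays of replicates 2 and 3 (up to 0.0828). HCN4, a pacemaker channel, had shifts of 0.60, 2.15 and 0.25 and lost it without any array of the 69-kDa line or without replicate 2 or 3 of the 82-kDa line (up to 0.075). PLPP3, a lipid phosphatase, lost it without replicate 3 of the 69-kDa line, any array of the 82-kDa line, or replicate 3 of the arrays labelled wild type (up to 0.105).

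**Figure D1:**
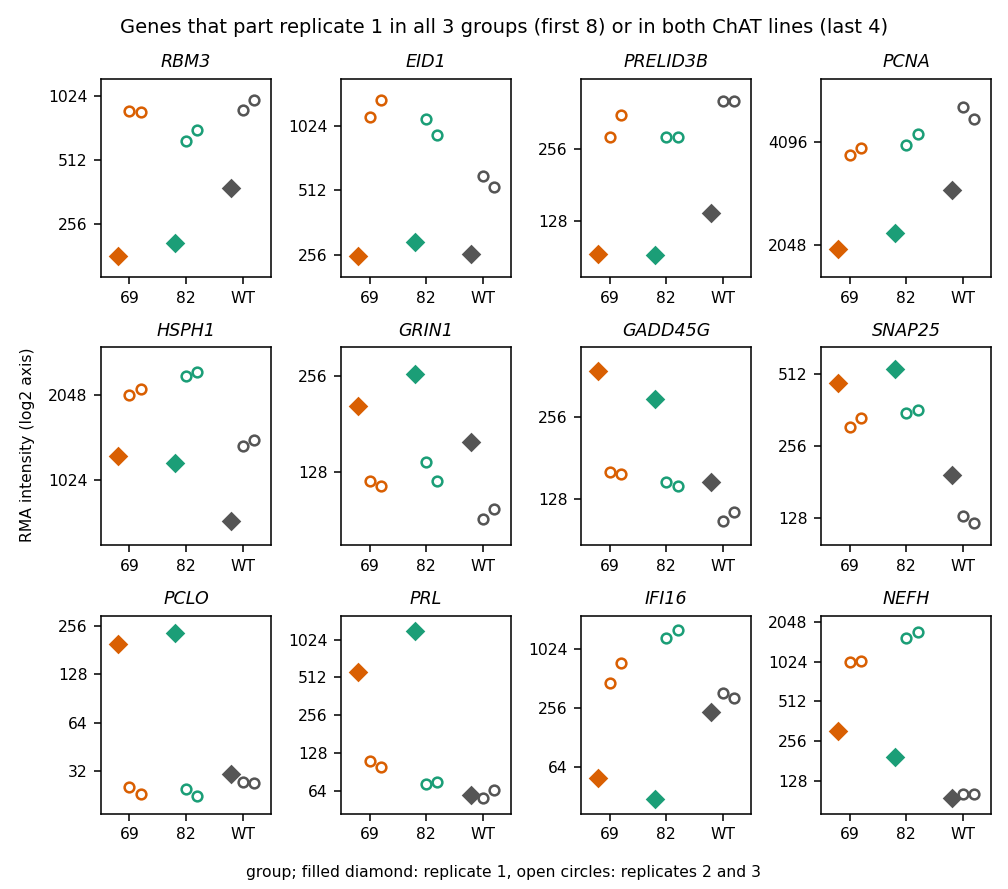
Intensity (log2 axis) on each of the 9 arrays of 8 genes that part replicate 1 in all groups and, in the bottom row, 4 that do so in both lines, with replicate 1 as filled diamonds and replicates 2 and 3 as open circles. RBM3 read 181, 208 and 378 on replicate 1 of the 69-kDa line, the 82-kDa line and the arrays labelled wild type, below every other array.

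Several lists of genes had more members called lower over all groups than called higher. Counted by the brightest probe set of each of 11939 genes, 17.3% of genes were higher and 16.4% lower on replicate 1 over all groups. Of 43 genes of G2/M and the mitotic spindle 22 were lower and 0 higher, with a median log2 difference of -0.40. MAD2L1, a spindle checkpoint protein, read 718 against 1724 and 2053 in the 69-kDa line, 822 against 2158 and 2211 in the 82-kDa line, and 758 against 1394 and 1287 on the arrays labelled wild type (-1.21 ± 0.12, adjusted p = 0.00115). Of 44 genes of DNA replication and the G1/S step 18 were lower and 0 higher, among them the sliding clamp PCNA (-0.87 ± 0.06, adjusted p = 0.000846) and the uracil glycosylase UNG (-1.01). Of 55 nuclear genes of oxidative phosphorylation 31 were lower and 1 higher, with the complex I subunit NDUFA5 at -0.96, and of 32 proteasome subunits 20 were lower and 0 higher, with PSMD12 at -0.83. Splicing factors gave 20 lower and 1 higher of 42 (SRSF11, -0.83), and ribosome biogenesis 15 lower and 0 higher of 34. The 52 cytosolic ribosomal proteins gave 15 lower and 0 higher, with a median of -0.09 and RPS25 at -0.86.

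These lists are made of bright genes, and the second normalization took away much of their shift. After it, 2472 of all 22215 probe sets were lower and 2787 higher over all groups. Oxidative phosphorylation then gave 12 lower and 5 higher (median -0.04), the proteasome 6 and 1 (-0.08), and splicing 6 and 4 (-0.04). G1/S gave 11 and 4 (-0.06), and G2/M 13 and 1 (-0.18). Ribosome biogenesis gave 8 and 2, and the ribosomal proteins turned to 3 lower and 5 higher. On the arrays labelled wild type alone the medians of G1/S, G2/M and the proteasome then turned positive, at 0.05, 0.04 and 0.03, and that of splicing in the 82-kDa line to 0.08. In the 69-kDa line G2/M genes were lower in 34 of 43 (median -0.64; 16.7% of all genes were lower there), and in 22 of 43 after the second normalization, while 19 were called without replicate 3 of that line. In the 82-kDa line 25 of 43 were lower (19.2% of all genes), and on the arrays labelled wild type 4 (4.27% of all genes). The shift there lay above the mean shift of the lines for 9 of the 43 and below it for 0 (2.33% and 1.42% of all genes).

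In the list of cytosolic heat shock proteins, which also holds the mitochondrial HSPE1, 9 of 19 were lower on replicate 1 and 1 higher, with a median of -0.35. The median intensity of this list, 864, lies in the ninth of the 10 brightness bins, where 33.2% of probe sets were lower. HSPH1, a nucleotide exchange factor for the HSPA chaperones, read 1246 against 2057 and 2166 in the 69-kDa line, 1174 against 2402 and 2491 in the 82-kDa line, and 728 against 1351 and 1421 on the arrays labelled wild type (-0.92 ± 0.07, adjusted p = 0.000846). HSPA4L (-0.87), the mitochondrial HSPE1 (-0.89) and HSP90AA1 (-0.54) were lower too. The count was 6 lower and 1 higher after the second normalization. Interferon-induced genes went the other way, 17 of 34 higher and 1 lower, with small differences of dim probe sets: the median was 0.20, MX2 read 119 against 83.3 and 75.2 in the 69-kDa line (0.63 over all groups, adjusted p = 0.00313), and PSMB9 differed by 0.53. Between 10 and 13 were higher with 1 array left out, 9 after median centring and 8 after the second normalization. The hypoxia factor HIF1A was lower (-0.73, adjusted p = 0.00115), while of 25 hypoxia-induced genes 4 were higher, and 1 lower, over all groups, shares under those of all genes. By group, the median shift of the 25 was 0.29 in the 69-kDa line, -0.05 in the 82-kDa line and 0.05 on the arrays labelled wild type. Over all genes it was 0.03 in each group. The shift in the 69-kDa line minus the mean shift of the others had a median of 0.30 over the 25. VEGFA differed by 0.63 on its brightest probe set, while another was not called over all groups (adjusted p = 0.243), with a shift of 2.74 in the 69-kDa line, and of -0.56 in the other line, that both passed.

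**Figure D2:**
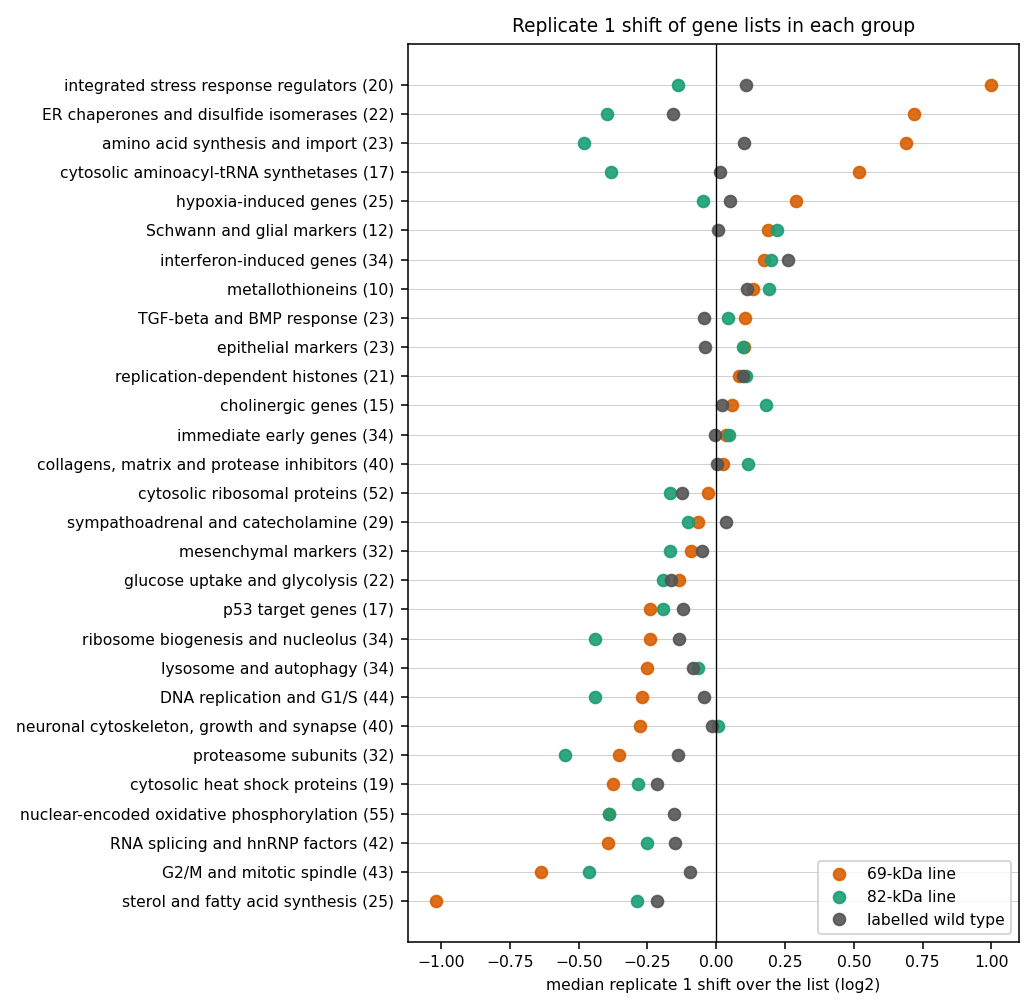
Median shift of replicate 1 (log2) over the measured genes of each list in the 69-kDa line, the 82-kDa line and the arrays labelled wild type. The ER chaperone list lies at 0.72 in the 69-kDa line and at -0.40 in the 82-kDa line, while G2/M genes lie below 0 in all 3 groups.

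Neuronal and sympathetic genes moved both ways over all groups, where 17.3% of all genes were higher and 16.4% lower. Of 40 genes of neurite structure, outgrowth and the synapse 6 were higher and 9 lower, 7 and 7 after the second normalization, and of 29 sympathoadrenal genes 3 were higher and 6 lower, then 4 and 3. Within the 69-kDa line 3 of the 40 were higher and 19 lower (14.7% and 16.7% of all genes). The presynaptic SNAP25 read 470.5 against 307 and 335 in the 69-kDa line, 533 against 353 and 362 in the 82-kDa line, and 195 against 130.4 and 122 on the arrays labelled wild type (0.58 ± 0.05, adjusted p = 0.00111). The tubulin TUBB2A (-0.85), the RNA-binding protein ELAVL4 (-1.0) and the growth cone protein DPYSL2 (-1.05) were lower. GAL, the neuropeptide galanin, read 979 against 2541 and 2483, 869.8 against 2117 and 2534, and 174 against 357 and 348 (-1.26 ± 0.09, adjusted p = 0.000846). MYCN itself differed by -0.59 ± 0.09 (adjusted p = 0.0033).

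A set of genes parted replicate 1 in both lines and not on the arrays labelled wild type: 102 probe sets were higher (0.459%) and 294 lower (1.32%), by shifts that passed in both lines in 1 direction and whose difference from the shift of the arrays labelled wild type also passed. This class was added after the data were seen. It held 22 to 87 probe sets when 1 of the 6 arrays of replicates 2 and 3 was left out, fewest without replicate 3 of the 82-kDa line.

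PCLO went from near background to a bright signal. On the brighter probe set of PCLO, replicate 1 read 1234 against 50.1 and 45.2 in the 69-kDa line and 1141 against 49.9 and 36.1 in the 82-kDa line, while the arrays labelled wild type read 74, 76.2 and 63.6. The shifts were 4.70 ± 0.20, 4.75 ± 0.20 and 0.09 ± 0.20 (adjusted p = 0.000243, 0.000201 and 0.822). Since the other arrays of the lines were dimmer than the lowest of the arrays' lower quartiles (55.9), the size of the shifts in the lines is uncertain. PRL, the hormone prolactin, read 568 against 110.4 and 98.3, and 1192 against 71.9 and 74.4, with 56.1 to 65.1 on the arrays labelled wild type. NGFR, the low-affinity neurotrophin receptor, read 346 against 81.7 and 73, and 472 against 65.2 and 65.1, with 64.1 to 69.6. In each of the 3 genes both replicate 1 arrays of the lines lay more than 3-fold above all other arrays. The neurite growth gene NRN1 (shifts of 1.71 and 1.91), the differentiation regulator IFRD1 (2.24 and 0.51), ZNF277 (2.0 and 0.59), the quinone reductase NQO2 (1.29 and 0.89) and the matrix gene MXRA5 (0.65 and 1.66) were the other named members.

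Of the 294 probe sets lower in both lines, 8 genes are named. AVPR1A, a vasopressin receptor, read 33 on replicate 1 against 247 and 288 in the 69-kDa line, 49.2 against 226 and 209 in the 82-kDa line, with 29.2 to 31.6 in the remaining group, so that replicate 1 of the lines came close to arrays where the gene is near background. TIMP1, an inhibitor of matrix proteases, read 131 against 427 and 407, 132 against 478 and 495, and 1843 to 2133. EYA1, a transcriptional coactivator and phosphatase, read 112 against 284 and 257, 129.7 against 691 and 751, and 75.8 to 93. The phosphodiesterase PDE10A (shifts of -2.14 and -2.48), the neuronal protease PRSS12 (-2.53 and -1.90) and the factor CUX2 (-0.65 and -2.33) also fell, as did IFI16. NEFH on its second probe set read 269 against 948 and 1196, 165 against 1806 and 1979, and 32.3 to 41.9. Its partner among the intermediate filaments, peripherin (PRPH), read 920.0 against 2018 and 2414, 506 against 2136 and 2181, and 226 to 233, with shifts of -1.26 and -2.09 in the lines. On the arrays labelled wild type AVPR1A and NEFH lay under the lowest of the arrays' lower quartiles (55.9), where a fall could hardly be seen. How many of the 294 probe sets are so dim there was not counted.

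A difference from the arrays labelled wild type does not show that a fall was absent there for genes near background. Of the 16 genes named for both lines, PCLO, PRL, NGFR, ZNF277, AVPR1A, PDE10A, EYA1 and TIMP1 kept the call for the difference from the arrays labelled wild type with any 1 of the 6 arrays of replicates 2 and 3 left out. NQO2 and NEFH lost it when replicate 3 of the 82-kDa line was left out (adjusted p = 0.0522 for both), and PRSS12 without replicate 2 or 3 of that line (up to 0.0821). IFI16 lost it without those 2 or without replicate 2 or 3 of the arrays labelled wild type (up to 0.082), and IFRD1 and MXRA5 without replicate 2 or 3 of either line (up to 0.0821 and 0.0796). NRN1 kept it only without replicate 2 of the 82-kDa line (up to 0.126) and CUX2 only without replicate 2 of the 69-kDa line (up to 0.116).

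On replicate 1 of the 69-kDa line, regulators of the integrated stress response, amino acid genes, tRNA synthetases and ER chaperones were higher. Of probe sets whose shift passed there, differed from the mean shift of the other groups and passed in neither of these, 167 were higher (0.752%) and 174 lower (0.783%). The count, 341 in all, was 33 to 79 with 1 array of replicate 2 or 3 of a line left out and 200 and 232 without replicate 3 or 2 of the arrays labelled wild type. Before the values, 5 promoters of genes from these lists are shown: 3 that carry the ATF4-type element TGATGNAA (on either strand) and 2 that carry the ER stress element, which is CCAAT, then 9 bases of any kind, then CCACG (on either strand). Each is the 250 bases before the transcription start in RefSeq, build GRCh38.p14, on the strand of the gene, with the matched letters in capitals: ASNS at chr7:97872409-97872658 (minus strand), CHAC1 at chr15:40953221-40953470 (plus strand), HERPUD1 at chr16:56931892-56932141 (plus strand), HSPA5 at chr9:125241344-125241593 (minus strand) and HSP90B1 at chr12:103930160-103930409 (plus strand).
ASNS: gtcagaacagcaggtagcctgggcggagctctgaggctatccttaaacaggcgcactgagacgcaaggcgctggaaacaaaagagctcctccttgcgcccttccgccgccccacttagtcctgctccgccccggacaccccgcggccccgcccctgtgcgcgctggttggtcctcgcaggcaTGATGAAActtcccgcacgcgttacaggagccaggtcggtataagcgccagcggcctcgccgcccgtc
CHAC1: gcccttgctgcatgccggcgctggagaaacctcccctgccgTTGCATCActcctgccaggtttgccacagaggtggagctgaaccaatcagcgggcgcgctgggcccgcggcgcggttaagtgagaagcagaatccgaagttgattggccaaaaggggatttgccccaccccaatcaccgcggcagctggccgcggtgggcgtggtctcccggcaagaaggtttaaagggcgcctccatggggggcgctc
HERPUD1: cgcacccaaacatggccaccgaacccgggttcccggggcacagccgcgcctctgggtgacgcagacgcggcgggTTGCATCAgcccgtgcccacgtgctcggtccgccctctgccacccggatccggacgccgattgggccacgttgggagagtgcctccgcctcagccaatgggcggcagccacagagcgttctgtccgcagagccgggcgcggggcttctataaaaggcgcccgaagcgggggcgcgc
HSPA5: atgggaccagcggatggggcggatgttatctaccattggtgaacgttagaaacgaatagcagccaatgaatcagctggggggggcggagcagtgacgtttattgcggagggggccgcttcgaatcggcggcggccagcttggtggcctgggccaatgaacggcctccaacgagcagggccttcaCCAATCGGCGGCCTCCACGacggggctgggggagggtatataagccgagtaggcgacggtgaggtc
HSP90B1: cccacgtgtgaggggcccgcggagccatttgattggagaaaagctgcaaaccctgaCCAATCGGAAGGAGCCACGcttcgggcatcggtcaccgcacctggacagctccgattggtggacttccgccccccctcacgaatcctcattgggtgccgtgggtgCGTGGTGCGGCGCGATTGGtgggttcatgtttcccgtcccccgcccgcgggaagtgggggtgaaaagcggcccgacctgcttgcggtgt
The match begins 68 bases before the start in ASNS, 209 in CHAC1 and 176 in HERPUD1, the last 2 on the opposite strand, and HSP90B1 has 2 ER stress elements. Of 27305 genes with RefSeq promoter windows of this length, 3.89% had TGATGNAA and 0.0916% the ER stress element in at least 1 window. Among the lists below it was TGATGNAA that lay in 4 of 17 matched stress response genes (ATF3, CEBPG, CHAC1, HERPUD1), 4 of 19 amino acid genes (ASNS, BCAT1, GOT1, SLC1A5), 3 of 14 tRNA synthetase genes (AARS1, GARS1, IARS1) and 0 of 21 ER chaperone genes, while the ER stress element lay in 7 of these 21 (CALR, CANX, CRELD2, HSP90B1, HSPA5, PDIA6, SERP1) and in 1 of the 17 stress response genes (XBP1). A match is a description of the letters.

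Genes of the integrated stress response made up most of the 5 largest rises called in the 69-kDa line alone. ATF5 read 1298 on replicate 1 against 78.5 and 84.8 on replicates 2 and 3, with 77, 85.7 and 82.9 in the 82-kDa line and 135, 85.7 and 109 on the arrays labelled wild type. Its shift was 3.99 ± 0.14 in the 69-kDa line and exceeded the mean shift of the other groups by 3.82 (adjusted p = 0.00057). ATF3 read 666 against 115 and 140.1 there, 141 against 204 and 164 in the 82-kDa line, and 578 against 760.1 and 609 on the arrays labelled wild type (difference of shifts 2.70, adjusted p = 0.00475). DDIT4, an inhibitor of mTOR signalling, read 4972 against 857 and 874, 785 against 798 and 742, and 720.2 against 669.8 and 835 (2.53, adjusted p = 0.00185). INHBE, a secreted inhibin chain induced by ER stress, read 131 against 24.6 and 24.8, with 21.5 to 35.2 on the other arrays (2.47, adjusted p = 0.00151). These 4 genes kept the call with any 1 of the 6 arrays of replicates 2 and 3 left out. HMOX1, heme oxygenase, read 511 against 115 and 114 (2.68, adjusted p = 0.00684), and lost it without replicate 2 or 3 of either line (0.0596 to 0.0707).

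Of 20 measured regulators of the integrated stress response, 15 were higher and 1 lower in the 69-kDa line, with a median shift of 1.0, where 14.7% of all genes were higher and 16.7% lower. On the arrays labelled wild type 1 was higher and 2 lower (3.00% and 4.27% of all genes), and in the 82-kDa line 0 were higher and 3 lower (16.3% and 19.2%). The shift in the 69-kDa line exceeded that of the other groups for 13 of the 20 (2.17% of all genes). The members named next, in this list and the 4 that follow, were chosen after their values were seen. DDIT3, the factor CHOP, was 899.8 against 213 and 189 (shift 2.17), CEBPB 1130.4 against 150.3 and 145 (2.94), and HERPUD1, a part of ER-associated degradation, 4039 against 841 and 836 (2.27). ATF4, which is known to be regulated mainly through its translation, read 4629 against 2600.4 and 2912 (0.75, adjusted p = 0.0081). CHAC1, which degrades glutathione, read 243 against 94.6 and 90.6, and TRIB3 had a shift of 1.94. The stress cytokine GDF15 (48.5 against 52.2 and 51.1) and NUPR1 (88.4 against 78.7 and 78.4) did not pass, and TRIB1 was lower (-0.95, adjusted p = 0.0264).

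Of 23 genes of amino acid synthesis and import, 15 were higher and 1 lower in the 69-kDa line (median 0.69), and 0 were higher and 12 lower in the 82-kDa line (median -0.48). On the arrays labelled wild type 3 were higher, ASNS, PHGDH (0.71) and CBS (0.44), and 0 lower, where 3.00% of all genes were higher. ASNS, asparagine synthetase, whose promoter element is shown above, read 4165 against 917 and 999 in the 69-kDa line (2.12, adjusted p = 0.000371), 679 against 1203 and 1255 in the 82-kDa line (-0.86, adjusted p = 0.00316) and 1549 against 931 and 1069 on the arrays labelled wild type (0.63, adjusted p = 0.0309). PSAT1, of serine synthesis, read 4607 against 1163 and 1186, 1109 against 1758 and 1644, and 2444 against 1911 and 2302. The cystine importer SLC7A11 read 349 against 49.8 and 55.2 in the 69-kDa line (2.73), and the leucine importer SLC7A5 2125 against 708 and 755, with 354 against 849.7 and 860.5 in the 82-kDa line (1.54 and -1.27). PSPH, the last enzyme of serine synthesis, had shifts of 1.60 and -1.93. Of 17 cytosolic tRNA synthetases 8 were higher and 1 lower in the 69-kDa line, and 0 higher and 8 lower in the 82-kDa line, with GARS1 at 4837 against 2219 and 2336 in the 69-kDa line and 1519.8 against 2422 and 2553 in the 82-kDa line.

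Of 22 ER chaperones and disulfide isomerases 17 were higher and 2 lower in the 69-kDa line (median 0.72), and 0 higher and 14 lower in the 82-kDa line (median -0.40). HSPA5, the ER chaperone BiP, read 5344 against 1843 and 1818, 1315 against 2259 and 2267, and 2516 against 3449.6 and 3253 on the arrays labelled wild type (shifts of 1.55, -0.78 and -0.41, adjusted p = 0.000334, 0.00174 and 0.0352). HSP90B1 read 1737 against 584 and 566 in the 69-kDa line and 497 against 681 and 736 in the 82-kDa line. XBP1, the factor of the ER response, read 771 against 399 and 360.1, 219.6 against 423 and 422, and 295 against 420.4 and 424. The disulfide isomerase PDIA3 was the reverse in weight, with shifts of 0.34 and -1.26. The median intensities of the ER, amino acid and tRNA synthetase lists, 964, 648 and 1153, lie in the ninth or the brightest bin. Over all probe sets of these bins the median shift in the 82-kDa line was -0.26 and -0.33. The list medians in that line were -0.40, -0.48 and -0.38, and -0.19, -0.19 and -0.07 after the second normalization. The part of brightness in these falls was not tested. Both directions at once, higher in the 69-kDa line and lower in the 82-kDa line with each shift past the test, held for 11 ER chaperones, 8 amino acid genes, 4 tRNA synthetases and 3 stress regulators. The reverse held for 0 in each list. Over all 22215 probe sets, 272 were called in opposite directions in the 2 lines, whichever line was higher. The shift of the 82-kDa line was below that of the other groups for 13, 12, 9 and 10 members of these lists (4.0% of all genes), and that of the 69-kDa line above it for 16, 15, 7 and 13. Each is set against a mean that includes the other line, so a rise in the 69-kDa line itself lowers the difference of the 82-kDa line: of the stress regulators, 10 were below in this way and 3 were lower by their own shift.

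In the 69-kDa line these 4 lists had 12 or more higher members (6 or more for the tRNA synthetases) with any 1 array left out. The ER list had 12 without replicate 3 of that line, and all 4 gave 10 to 19 after the second normalization. In the 82-kDa line the falls were less steady: without its replicate 3 they numbered 7 ER chaperones, 7 amino acid genes and 2 tRNA synthetases, and after the second normalization 7, 7 and 1, with 1, 3 and 2 higher. With array quality weights they numbered 1, 1 and 0, and the rises in the 69-kDa line 10 ER chaperones, 10 amino acid genes, 5 tRNA synthetases and 10 stress regulators.

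**Figure D3:**
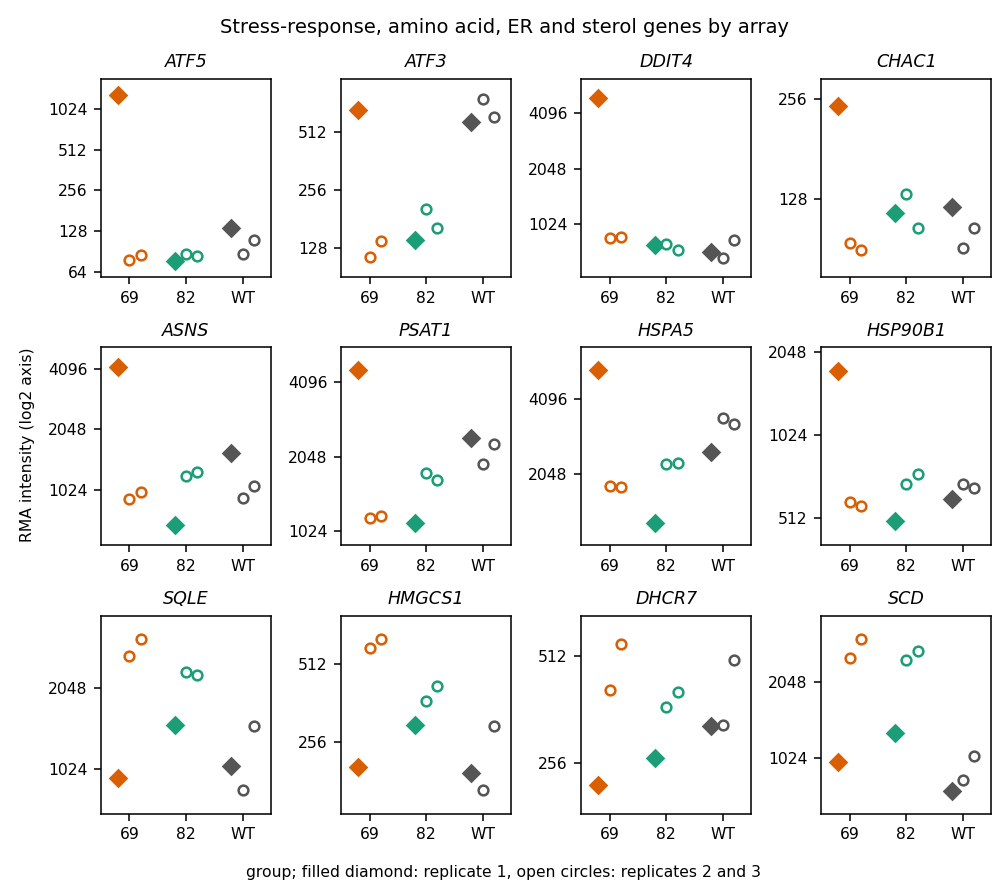
Intensity (log2 axis) of stress response, amino acid, ER and sterol genes on the 9 arrays, with replicate 1 as filled diamonds and replicates 2 and 3 as open circles. Replicate 1 of the 69-kDa line is highest for ASNS (4165) and HSPA5 (5344), where replicate 1 of the 82-kDa line is lowest (679 and 1315), and is below its own replicates for SQLE (946).

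Sterol and fatty acid synthesis ran the other way in the 69-kDa line. Of 25 measured genes 20 were lower and 0 higher there (median -1.02; 16.7% of all genes were lower), 5 were lower and 1 higher in the 82-kDa line (19.2% of all genes were lower), and 0 lower and 1 higher on the arrays labelled wild type. SQLE, squalene epoxidase, read 946 against 2677 and 3085 in the 69-kDa line, 1494 against 2329 and 2272 in the 82-kDa line, and 1054 against 857 and 1473 on the arrays labelled wild type (shifts of -1.60, -0.62 and -0.09). HMGCS1, which starts the mevalonate pathway, read 206 against 589 and 641, 298 against 367 and 422, and 194 against 167 and 295. The desaturase SCD was lower in both lines, with shifts of -1.48 and -1.01. The shift lay below that of the other groups for 3 of the 25 genes (2.38% of all genes) and above it for 0. The 3 are FADS2 (-1.06, adjusted p = 0.00985), LSS (-1.06, adjusted p = 0.0377) and TM7SF2 (-0.82, adjusted p = 0.0111). On the arrays labelled wild type, SQLE and HMGCS1 also differed between replicates 2 and 3, with replicate 1 between them. The 20 calls became 8 without replicate 3 of the 69-kDa line and 5 with array quality weights, and were 20 after the second normalization.

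Of the 174 probe sets lower in the 69-kDa line alone, the 5 named genes are DST, DUSP4, NUAK1, ARMCX1 and MYRIP. DST, a linker of cytoskeletal filaments, read 315 against 1139 and 1122, with 486 against 421 and 474 in the 82-kDa line and 563 against 683 and 577 on the arrays labelled wild type (difference of shifts -1.82, adjusted p = 0.00386). DUSP4, a phosphatase of MAP kinases, read 48.6 against 196 and 218, with 46.7 to 54.9 in the 82-kDa line (-2.05, adjusted p = 0.00233). NUAK1, a kinase related to AMPK, read 313 against 1142 and 1608, with 1125 against 748 and 737 in the 82-kDa line (-2.32, adjusted p = 0.00741). For DST and DUSP4 the fall brought replicate 1 of the 69-kDa line to or below the level of the 82-kDa line. In both other groups DUSP4 lay under the lowest of the arrays' lower quartiles (55.9), where a fall could hardly be seen. Of the 174 lower probe sets, 4 were so dim on all arrays of the other groups. NUAK1 lost its call without replicate 2 or 3 of the 82-kDa line (0.0673 and 0.0644), ARMCX1 (-2.26) without these or replicate 3 of the 69-kDa line (up to 0.062), and MYRIP (-2.07) without replicate 2 or 3 of the 82-kDa line or of the arrays labelled wild type (up to 0.117).

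In the 82-kDa line alone 199 probe sets were higher (0.896%) and 318 lower (1.43%), and this count of 517 was 16 to 135 with 1 array of replicate 2 or 3 of a line left out, 257 and 396 without replicate 2 or 3 of the arrays labelled wild type. The lowest count was without replicate 3 of the 82-kDa line, whose 28S ribosomal control read 1245 against 65.7 to 205 on the other 8 arrays; its part was not tested. CNGA3, a cyclic nucleotide-gated channel, read 791 against 113 and 108, with 236, 236 and 211 in the 69-kDa line, and between 35.5 and 46.7 on the arrays labelled wild type (shift 2.84 ± 0.10, difference from the others 2.63, adjusted p = 0.00093). TIMP3, an inhibitor of metalloproteases, read 272 against 69.6 and 76.1, with 255, 294 and 301 in the 69-kDa line (1.88, adjusted p = 0.00157), and the neuronal pentraxin NPTX1 524 against 147 and 152, with 275 to 292 in the 69-kDa line (1.74, adjusted p = 0.00149). PROM1, a membrane protein of progenitor cells, read 27.4 on replicate 1 against 242 and 249, while the 69-kDa line read 25.1 to 27.5 and the arrays labelled wild type 28.5 to 31.6 (-3.13, adjusted p = 0.000539). On a second probe set TIMP3 shifted in both lines, by 1.63 in the 82-kDa line and by -0.71 in the other (adjusted p = 0.000907 and 0.00776), so it was not called in 1 group only there. TIMP3 and PROM1 on the named probe sets stood on replicate 1 of the 82-kDa line at the level of the 69-kDa line. In both other groups PROM1 lay under the lowest of the arrays' lower quartiles (55.9), where a fall could hardly be seen. Of the 318 lower probe sets, 6 were so dim on all arrays of the other groups.

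CNGA3, TIMP3, NPTX1 and PROM1 kept the call with any 1 of the 6 arrays of replicates 2 and 3 left out. WLS, the carrier of Wnt ligands, read 291 against 928 and 991 (-1.66, adjusted p = 0.0027, which became 0.0502 when replicate 3 of this line was left out). ARMCX2 (-2.73) and the redox regulator PIR (-1.60) lost the call without replicate 2 or 3 of that line (up to 0.0873 and 0.0968). The factor TBX2 (-1.59) lost it without these or replicate 2 or 3 of the arrays labelled wild type (up to 0.159), and TPBG (2.0) without replicate 2 or 3 of the 69-kDa line or of the arrays labelled wild type (up to 0.0789). ESRRG, an orphan nuclear receptor (2.06), kept it only without replicate 3 of the 69-kDa line (up to 0.145).

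Several genes shifted in opposite directions in the 2 lines, and many of them are genes by which the lines differed on the other arrays. MAB21L2, a developmental regulator, read 283 on replicate 1 against 1312 and 1301 in the 69-kDa line and 2743 against 68.8 and 62 in the 82-kDa line, with 53.5 to 60.3 on the arrays labelled wild type (shifts of -2.21 and 5.39). STMN2, a tubulin-binding protein of growing axons, read 97 against 498 and 817, and 1183 against 137 and 137. IGFBP5, which binds insulin-like growth factors, read 541 against 2050.4 and 2042, and 2495 against 582 and 725. On replicates 2 and 3 each of these was higher in the 69-kDa line, and on replicate 1 each was higher in the 82-kDa line. The same held for HAND1, a sympathetic lineage factor (shifts of -1.25 and 1.69), for DDC, which makes dopamine (-1.85 and 0.66), and for DCX, a microtubule protein of young neurons (-0.84 and 0.64). CDH11, a mesenchymal cadherin, read 67.4 against 392 and 439, and 404 against 253 and 249.6.

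The probe sets that part the lines were taken from replicates 2 and 3, a choice made after the data were seen, and looked up on replicate 1. On 52 probe sets every array of replicates 2 and 3 of 1 line was at least 2-fold above every such array of the other line and the higher mean was at least 100, with 34 higher in the 69-kDa line, 18 in the 82-kDa line and a median log2 difference of 1.41. On replicate 1 the difference went the same way for 15 and the opposite way for 37 (71.2%), its median in the direction of replicates 2 and 3 was -0.46, and 12 were at least 2-fold in the opposite direction. In 1 of the 52 (1.92%) the direction was kept at 2-fold or more, and that probe set is CHAT. Across the 52 probe sets the correlation of the differences was -0.45, over probe sets chosen for being wide apart.

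The lines' difference from the arrays labelled wild type did hold on replicate 1. Of 1646 probe sets parting the 69-kDa line from these arrays in the same way, 79.3% were at least 2-fold apart in the same direction on replicate 1 and 1.28% lay in the opposite direction, and of 1617 for the 82-kDa line 80.1% and 0.618%. Replicate 1 of the 69-kDa line was nearer to replicates 2 and 3 of the 82-kDa line than to its own in 28 of the 52 probe sets, and replicate 1 of the 82-kDa line nearer to those of the 69-kDa line in 37. Pairs of line arrays were also compared over probe sets that read at least 100 in 1 line or the other. Of these, 256 were 2-fold or more apart on replicate 1 (100 higher in the 82-kDa line, 156 higher in the other). On replicate 2 there were 88 and on replicate 3 there were 130. What these arrays share beyond their number is not labelled, and whether cells or labels were exchanged was not tested.

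**Figure D4:**
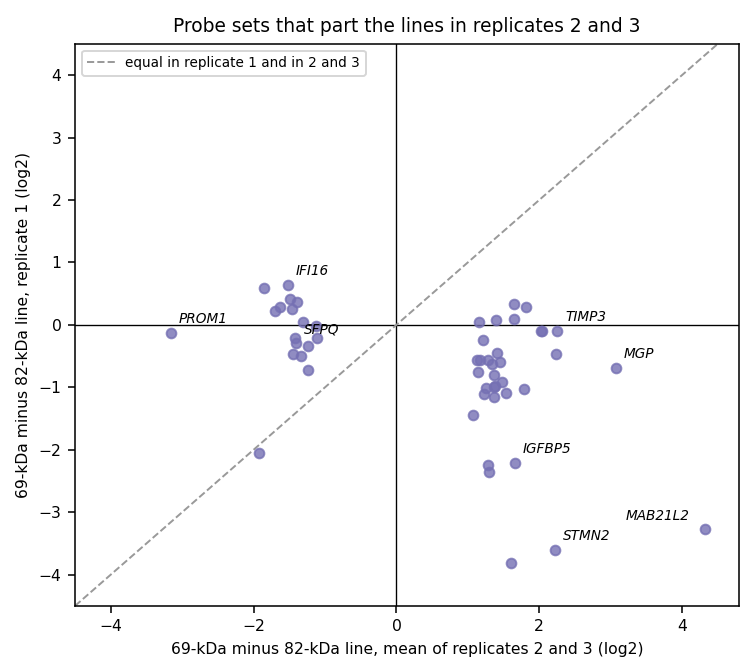
Log2 difference between the lines on replicates 2 and 3 (horizontal axis) and on replicate 1 (vertical axis) for the 52 probe sets that part the lines at least 2-fold on replicates 2 and 3. Of these, 37 lie in the opposite direction on replicate 1, with MAB21L2 at the right-hand end, and CHAT is the 1 that keeps its direction at 2-fold or more.

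Part of the shifts followed the order of genes along chromosomes. Of the 14 named probe sets higher in the 82-kDa line on replicates 2 and 3, 5 lie on chromosome 1. Of the 32 higher in the 69-kDa line, 1 does. The 5 are of DPYD, SFPQ, SF3A3 and IFI16, the last with more than 1 probe set. They are counted over the whole chromosome, not over the stretch described next. Counted by genes, 1200 of all 11939 lie on that chromosome. Over 8057 genes with a mean intensity of at least 100 in the lines, placed by RefSeq gene order, 205 neighbouring genes of chromosome 1 from TRAPPC3 to LRIF1 had a median log2 difference of 0.30 between the 82-kDa and the 69-kDa line on replicates 2 and 3, with 179 above 0. On replicate 1 the median was -0.04, with 94 above 0. The median shift of these genes was -0.58 in the 82-kDa line, with 172 below 0, -0.13 in the 69-kDa line and -0.05 on the arrays labelled wild type. Over the 6828 genes outside the stretches named here the medians were -0.08, -0.05 and -0.01.

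Other stretches parted the lines on replicate 1 and lay near 0 on replicates 2 and 3. The 218 genes from DCAF6 to ZNF692 on chromosome 1 had a median difference of 0.00 between the lines on replicates 2 and 3 and of 0.20 on replicate 1, with 172 above 0. On chromosome 7 the 349 genes from PRKAR1B to VIPR2 had 0.00 and -0.24, with 270 below 0, and median shifts of 0.17 for the 69-kDa line and -0.10 for the other. The 45 genes from PTCD3 to RANBP2 on chromosome 2 had -0.02 and 0.22. On chromosome 6 both lines moved alike: the 245 genes from DUSP22 to MMUT had median shifts of 0.25 (195 above 0) and 0.19 (178 above 0) and the 167 genes from SMAP1 to PDCD2 of -0.15 and -0.25, against 0.02 and -0.07 on the arrays labelled wild type. The ends of these stretches were set after the data were seen, a median over neighbours is a description of 1 array per line on replicate 1, and DNA copy number was not measured.

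**Figure D5:**
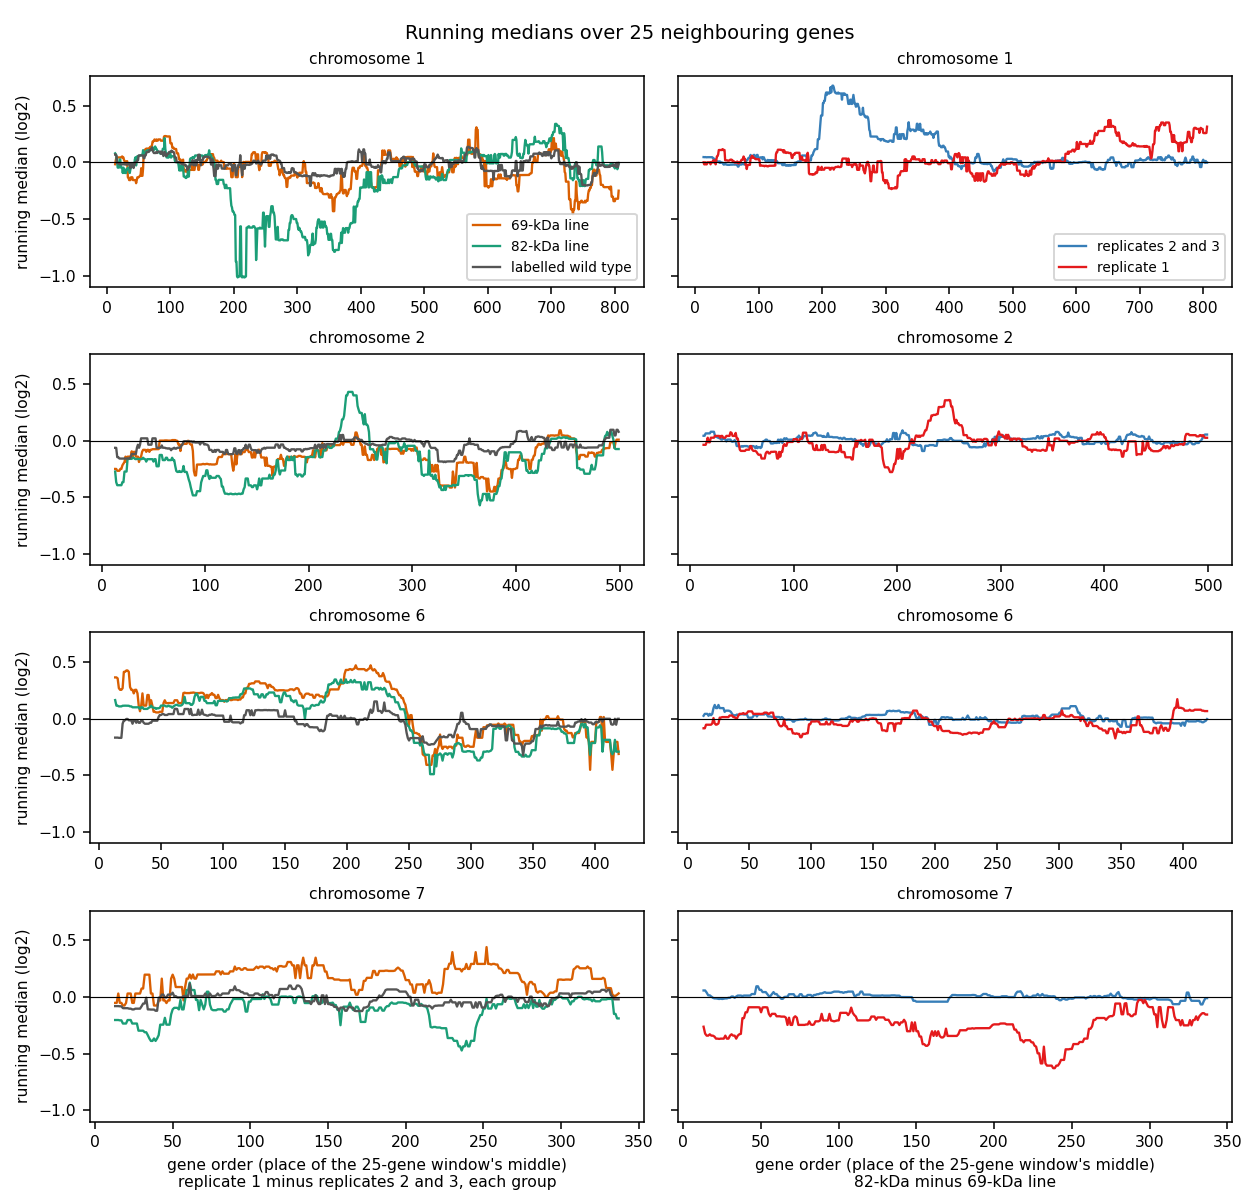
Running medians (log2) over 25 neighbouring genes along the order of genes on chromosomes 1, 2, 6 and 7, with the replicate 1 shift of each group on the left and the 82-kDa minus the 69-kDa line on the right. From TRAPPC3 to LRIF1 the lines lie 0.30 apart on replicates 2 and 3 and -0.04 on replicate 1.

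On the arrays labelled wild type alone, 20 probe sets were higher (0.0900%) and 56 lower (0.252%) on replicate 1. Of the 56 lower, 36 were dimmer than the lowest of the arrays' lower quartiles (55.9) on all 6 arrays of the lines, where a fall could hardly be seen. CAV1, the coat protein of caveolae, read 649.9 on replicate 1 against 1889 and 1822, with 55.9 to 65 in the lines (shift -1.51 ± 0.10, adjusted p = 0.0142). SELENOP, a secreted selenium carrier, read 121 against 612 and 444, with 16.4 to 19.5 in the lines (-2.10 ± 0.18, adjusted p = 0.0154). The epithelial adhesion molecule EPCAM read 493 against 1121 and 1209, and the laminin chain LAMA4 82.8 against 226 and 191. The kinase MAP3K5 read 91.3 against 224 and 245, and the sphingomyelin synthase SGMS1 38.9 against 120.3 and 105.

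Higher on replicate 1 were CALCB, a calcitonin gene-related peptide, at 248 against 89.2 and 102 (1.38 ± 0.10, adjusted p = 0.0142), the hydrolase ABHD2 (0.77), the kinase MAP4K5 (0.50), the ubiquitin ligase TRIM44 (0.60) and EXT1, which builds heparan sulfate chains (0.51). None of these 10 shifts passed without any 1 of the 6 arrays of replicates 2 and 3, the adjusted p being 0.052 to 0.11. The difference from the mean shift of the lines held more often for CAV1, lost only without replicate 3 of the 69-kDa line (0.0547), and for MAP3K5, lost only without replicate 3 of the 82-kDa line (0.0522). CALCB, SELENOP and SGMS1 lost it without replicate 2 or 3 of either line (up to 0.0922, 0.0922 and 0.0796), and ABHD2, MAP4K5, TRIM44, EXT1 and LAMA4 without any 1 of the 6 arrays (up to 0.149).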

How the data were processed

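Total RNA of 9 samples, 3 per group, was measured on Affymetrix 3' expression arrays. The authors deposited 1 linear intensity per probe set and array, made with RMA per the submitters' processing notes (version not given in the sources used here), which corrects background, normalizes between arrays and summarises probes. All 22283 probe sets were used except 68 AFFX controls, and log2 of the deposited intensity was taken with no pseudocount. Arrays carry no read depth, and their number limits the precision. Of the 22215 probe sets tested, 19065 have 1 gene symbol in the platform annotation, 1043 several and 2107 none. Values of 0 columns of other series were present, and 0 pairs of arrays were identical.

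Replicate 1 was compared with replicates 2 and 3 by limma 3.58.1 in R 4.3.3 with the group as a block (5 residual degrees of freedom), and within each group in a fit of 6 cells that leaves 3 degrees of freedom. The single replicate 1 array of a group was assumed to vary like the others. Benjamini-Hochberg adjustment ran over all probe sets at a threshold of 0.05, and errors are SE. The scripts were tested on simulated data. Arrays of 1 group are biological replicates per the series' design text. Deviations from the group mean correlated by 0.28 to 0.57 between arrays of the same number, past the rule of a correlation over 0.1. Deviations cancel within a group, so a shift shared by replicate 1 also makes numbers 2 and 3 correlate across groups. Arrays numbered 2 and 3 also correlated with each other across groups (0.21 to 0.48), so the check parts replicate 1 from the rest and does not tell numbers 2 and 3 apart.

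Gene lists use the brightest probe set per gene. Named genes, from probe sets with 1 symbol, are the 10 highest and 10 lowest over all groups with replicate 1 outside replicates 2 and 3 in each group and a higher mean of at least 100, the 5 highest and 5 lowest per group, up to 4 per list, CHAT and MYCN. The 31 sex-linked probe sets left out by that rule are not named. Up to 8 genes per direction were named for both lines. The members and lists were chosen with earlier results of these data known. The class of both lines, the line differences and the stretches of neighbouring genes were chosen after the data were seen. Alternatives were scaling, pseudocount, filters, probe set choice, variance settings, array weights, thresholds, blocks and leaving out each array.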

Additional observations from a re-analysis of the deposited data

Results flagged for a closer look

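These values are differences between the replicate 1 shift of 1 group and the mean shift of the other groups, on the log2 scale, each past an adjusted p of 0.05 (limma) by a test of the difference itself. For the 69-kDa line the stress genes ATF5 (3.82), ATF3 (2.70), HMOX1 (2.68), DDIT4 (2.53) and INHBE (2.47) were above, and NUAK1 (-2.32), ARMCX1 (-2.26), MYRIP (-2.07), DUSP4 (-2.05) and DST (-1.82) below. For the 82-kDa line CNGA3 (2.63), ESRRG (2.06), TPBG (2.0), TIMP3 (1.88) and NPTX1 (1.74) were above, and PROM1 (-3.13), ARMCX2 (-2.73), WLS (-1.66), PIR (-1.60) and TBX2 (-1.59) below.

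For the arrays labelled wild type CALCB (1.22), ABHD2 (0.82), MAP4K5 (0.74), TRIM44 (0.74) and EXT1 (0.71) were above, and SELENOP (-2.28), CAV1 (-1.64), LAMA4 (-1.57), MAP3K5 (-1.50) and SGMS1 (-1.44) below. Genes that moved in both lines show in the same difference with the sign turned. PCLO (-4.63), PRL (-3.27), NGFR (-2.61), NRN1 (-1.98), IFRD1 (-1.53), ZNF277 (-1.37), NQO2 (-1.26) and MXRA5 (-1.15) were higher on replicate 1 of the lines, and IFI16 (3.97), NEFH (3.04), AVPR1A (2.69), PRSS12 (2.35), PDE10A (2.31), EYA1 (2.14), TIMP1 (1.97) and CUX2 (1.75) lower. The cause of these differences was not tested.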

How the results depend on the processing

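Counts below follow 1 order: all groups, then the shift in the 69-kDa line, the 82-kDa line and the arrays labelled wild type, then each shift minus the others in that order, then the classes shared by all, only 69-kDa, only 82-kDa, only labelled wild type, and both lines. As reported they were 7062, 6325, 7306, 1551, 885, 1211, 698, 741, 341, 517, 76 and 396. Without probe sets ending in _x_at or _s_at, where fewer were tested, they were 3841, 3501, 4106, 913, 535, 657, 446, 417, 185, 267, 45 and 238. With array quality weights they were 3101, 937, 265, 0, 48, 18, 17, 0, 38, 6, 0 and 16, and at an adjusted p under 0.01 they were 2616, 2415, 3163, 0, 196, 208, 63, 0, 94, 87, 0 and 41. For the shift of the arrays labelled wild type limma gave 1933 with weights and 6010 at an unadjusted p under 0.05.

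With at least 1.5-fold asked, the first 4 were 1134, 2475, 2936 and 586, the shared class 202 and both lines 237. With 1 probe set per gene, where fewer were tested, the first 3 were 4055, 3998 and 4454. After quantile normalization the differences of shifts were 1699, 1986 and 1307, the classes of 1 group 742, 861 and 160, and both lines 621. With trend and robust settings the class of the arrays labelled wild type was 116. Without the group as a block 1735 passed over all groups. From the 3 arrays of a group alone, limma called 0, 0 and 0 (9647, 8494 and 3835 at an unadjusted p under 0.05). The cause of these changes was not tested beyond the numbers of probe sets and arrays. Leaving out 1 array gave 4411 to 7690, 1915 to 6742, 3284 to 7843 and 0 to 1551 for the first 4, 119 to 637, 68 to 960 and 25 to 142 for the differences of shifts, and 0 to 0, 33 to 232, 16 to 396, 0 to 0 and 22 to 87 for the classes.

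With the replicate number as a replicate block of 3 levels the counts were 6163, 6873, 7777, 1827, 1033, 1370, 827, 877, 382, 567, 86 and 469, each within 1.5 times the reported one. Over the named genes 2063 values kept their side of the threshold under the other alternatives and 412 did not, and with 1 array left out 1426 did and 304 did not, while 1 (CHAT) came to pass and 0 turned in direction. A signal near background limits what can be seen for dim probe sets.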
